A study of Danio rerio with 4 samples.

Results

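Genes of the proteasome and of the enzymes that attach and remove ubiquitin were compared between hearts, with the tissue around them, of wild-type zebrafish embryos given SU5402 and of siblings given DMSO. Members were the genes whose current symbol begins with one of a fixed set of stems, for the proteasome (psma to psmg), the E1 and E2 enzymes (uba1 to uba7, ube2 without ube2c), cullins with their F-box, Skp1, Rbx1 and Nedd8 partners, Nedd4 ligases, SUMO, the COP9 signalosome (cops2 to cops9) and deubiquitinases (usp, uchl, otub). The rule found 158 genes among the 8793 genes that the arrays measured with a single symbol, through 195 probe sets, and where a gene had several, the brightest on average was used. SU5402, a small molecule that inhibits the kinase of fibroblast growth factor (FGF) receptors, was used at 10 μM, and control embryos were kept in 1% DMSO. No DMSO level is given for the SU5402 embryos, and the effect of the solvent was not tested. Tissue was taken at 48 hours post fertilization (hpf), and there were 2 replicates a group, hybridised singly to Affymetrix Zebrafish arrays. The labels give neither the start nor the length of the treatment, and do not say whether replicates came from separate clutches, so p-values rest on a spread between arrays that may be technical alone.

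The 26S proteasome is the protease that degrades most short-lived proteins of the cell. Its 20S core is a barrel of alpha and beta rings, with the proteolytic sites on the inner face of the beta rings, and the 19S regulatory particle at its ends recognises ubiquitin chains, unfolds the substrate with a ring of ATPases and feeds it into the core. Ubiquitin reaches a substrate through an E1 activating enzyme, an E2 conjugating enzyme and an E3 ligase, and deubiquitinases remove it again. Muscle, the heart included, uses the same system to turn over contractile proteins.

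Levels are given as log2(intensity + 16), and differences as SU5402 minus DMSO on that scale, where changes of dim genes are understated. As a mark of background, the 95th percentile of 17 Tag control probe sets lay at 7.25, and 125 of the 158 members averaged above it in both groups, 9 in 1 group and 24 in neither. All 4 arrays had been scaled to the same trimmed mean, with median intensities of 172.9 to 184.4. Arrays of the same group correlated across probe sets at r = 0.964 (DMSO) and 0.928 (SU5402), where probe sets are not independent replicates. Between groups r ran from 0.908 to 0.94. SU5402 replicate 2 correlated with DMSO replicate 2 at 0.94 and with DMSO replicate 1 at 0.929, no less than with SU5402 replicate 1. Heart muscle markers were present, and 9 of 10 were higher in the SU5402 arrays, where the summed intensity of the list was 36553 to 47596 against 14777 to 23585 in DMSO. In whole tissue, fewer cells of a type and less RNA per cell cannot be told apart.

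The comparison asked which of these genes differ in the heart region when FGF receptors are inhibited. At an adjusted p under 0.05 in limma, 0 members were called (lowest adjusted p = 0.255), and 0% of all 8793 genes were, so no single gene below is called as changed. At an unadjusted p under 0.05, 10 members were lower after SU5402 (6.3%, against 8.04% of all genes) and 7 were higher (4.4%, against 5.31%), shares close to the background. The lower count changed when any 1 array was left out, and so did that of all genes. In those fits 1 group is a single array, so their counts are given only in the closing section on processing. The direction of the differences was less even. Both SU5402 arrays lay below both DMSO arrays for 57 members (36.1%, against 26.3% of all genes) and above both for 31 (19.6%, against 19.3%), and the difference was below 0 for 101 members (63.9%, against 56.2%). The median difference was -0.17 over the members and -0.08 over all genes. Without SU5402 replicate 1 these medians were -0.33 and -0.114, and without SU5402 replicate 2 they were -0.064 and -0.019. The shift lay mostly in the 36 genes grouped by name as proteasome core and regulatory particle. Their median was -0.58, while the other 122 members had a median of -0.04.

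**Figure D1:**
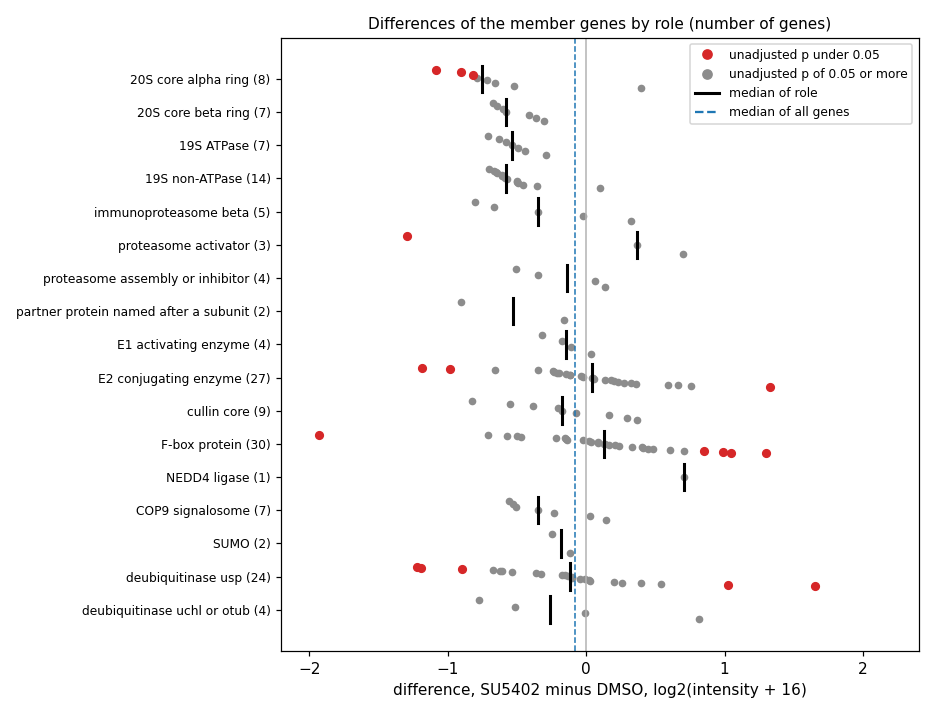
Difference of each of the 158 members (x axis, SU5402 minus DMSO in log2(intensity + 16)) by role (y axis, with the number of genes); red points have an unadjusted p under 0.05, black bars are role medians and the dashed line is the median of all genes at -0.08. The 4 rows of core and regulatory particle genes lie left of 0 with 2 exceptions, while the E2, F-box and usp rows spread to both sides.

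Genes grouped by name with the 20S core and 19S particle were lower as a group after SU5402. Of the 36 measured, 34 had a difference below 0 (94.4%, where 56.2% of all genes did), 33 of them between -1 and -0.25, and the group median corresponded to 66.7% of the DMSO level. In 28 of the 36 both SU5402 arrays lay below both DMSO arrays (77.8%, against 26.3% of all genes), in 0 above, and in 8 the groups overlapped. Among the 1743 genes with a mean level of at least 10, where most proteasome genes lie, the median difference was -0.12 and 60.1% were below 0. Of the 36, 3 had an unadjusted p under 0.05 (8.3%, against 8.04% of all genes), with a median SE of 0.33 beside the median difference of -0.58. The 36 genes are not independent replicates, so the shares over them do not measure the spread between replicates. They moved together between arrays of a group, with SU5402 replicate 2 below replicate 1 in 34 of the 36. Between replicate arrays the median of the 36 varied with an SD of 0.226. The count of 3 also changed with any 1 array left out. The median of the 36 was -0.48 without DMSO replicate 1 and -0.62 without DMSO replicate 2, where all genes had -0.064 and -0.113. It was -0.81 without SU5402 replicate 1 and -0.36 without SU5402 replicate 2, where all genes had -0.114 and -0.019.

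**Figure D2:**
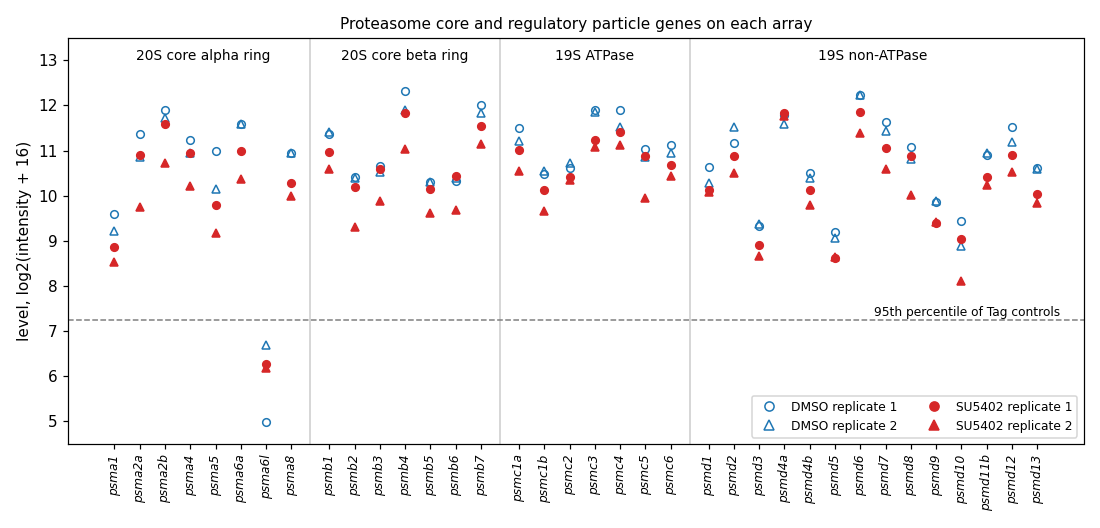
Level of each 20S core and 19S regulatory particle gene (x axis) on the 4 arrays (y axis, log2(intensity + 16)); open blue symbols are DMSO and filled red symbols SU5402, circles replicate 1 and triangles replicate 2. Red symbols lie below the blue ones in most genes, with SU5402 replicate 2 lowest, and psma6l is the single gene under the dashed background line at 7.25.

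The alpha ring, which forms the outer rings of the core and its gate, had the lowest median of the 4 parts at -0.75, with 7 of 8 genes below 0. Its gene psma5 stood at 10.99 and 10.15 with DMSO and 9.79 and 9.18 with SU5402. The lower DMSO array was thus near the higher SU5402 array, and the difference of -1.09 (SE 0.42) corresponded to a 95% interval of -2.13 to -0.05 (limma, adjusted p = 0.368); without DMSO replicate 1 it was -0.67. Levels of psma6a were 11.58 and 11.58 with DMSO and 10.99 and 10.36 with SU5402, so the DMSO arrays were alike and the SU5402 arrays spread, with a difference of -0.90 (SE 0.35) (limma, adjusted p = 0.364) that was -0.59 without SU5402 replicate 2. Its paralogue psma6l, named after its values were seen, was the exception at 0.39, and lay below the Tag background in both groups. The gene psma8, for which RefSeq also lists the name psma7, was at 10.95 and 10.94 with DMSO and 10.27 and 9.99 with SU5402, a difference of -0.82 (SE 0.31) with tight DMSO arrays (limma, adjusted p = 0.358). For psma2b, one of a pair of zebrafish psma2 genes, SU5402 replicate 1 was just below the DMSO arrays and replicate 2 further down, at 11.91 and 11.71 against 11.60 and 10.71 (DMSO against SU5402; difference -0.66).

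All 7 beta ring genes measured were below 0, from -0.67 to -0.30, with a median of -0.58. The 3 that carry the proteolytic activities were among them. The level of psmb7, the trypsin-like subunit, was 12.01 and 11.84 with DMSO and 11.54 and 11.15 with SU5402, without overlap and with a difference of -0.58 (SE 0.32). For psmb5, the chymotrypsin-like subunit, the values were 10.31 and 10.30 against 10.16 and 9.62 (DMSO against SU5402), a difference of -0.41 (SE 0.33), with SU5402 replicate 2 the lowest. In psmb6, the caspase-like subunit, the groups overlapped, with SU5402 replicate 1 above both DMSO arrays, at 10.32 and 10.40 against 10.43 and 9.69 (-0.30). The structural subunit psmb4 was at 12.32 and 11.89 with DMSO and 11.83 and 11.03 with SU5402, and its difference of -0.67 (SE 0.40) left the groups apart by a small gap.

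Of the 21 genes grouped by name with the 19S particle, 20 were below 0 (95.2%, against 56.2% of all genes). In 17 both SU5402 arrays lay below both DMSO arrays (81.0%, against 26.3%), and the median was -0.57. Among the 21, psmd5, psmd9 and psmd10 encode assembly chaperones that are no subunits of the finished particle. They were at -0.50, -0.45 and -0.59, and are counted in the 14 non-ATPase genes and in the 36. All 7 ATPase genes were lower, from -0.71 to -0.29. The ATPase gene psmc3 showed the largest of these, at 11.89 and 11.86 with DMSO and 11.24 and 11.09 with SU5402, a difference of -0.71 (SE 0.30) with groups well apart (limma, adjusted p = 0.403). Values for psmc4 were 11.89 and 11.52 against 11.41 and 11.13 (DMSO against SU5402), with a difference of -0.44 (SE 0.33) and a narrow gap between the groups. The gene psmc1a stood at 11.49 and 11.21 against 11.01 and 10.54, with a difference of -0.58 (SE 0.34). Its paralogue psmc1b, measured by separate probe sets, was at -0.63, close to it.

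Non-ATPase genes of the 19S particle ran from -0.70 to 0.10, with 13 of 14 below 0 and a median of -0.58. The scaffold subunit gene psmd1 was at 10.63 and 10.28 with DMSO and 10.12 and 10.08 with SU5402, with a difference of -0.35 (SE 0.31). For psmd6 the values were 12.24 and 12.23 against 11.86 and 11.38 (DMSO against SU5402), so DMSO arrays were almost equal and both SU5402 arrays lower, a difference of -0.61 (SE 0.33). A ubiquitin receptor of the particle is encoded by a pair of zebrafish genes whose differences had opposite signs. Its gene psmd4a was the exception among the 14, at 11.80 and 11.58 with DMSO and 11.82 and 11.76 with SU5402, a difference of 0.10 (SE 0.30) with overlapping groups. The other, psmd4b, was at 10.50 and 10.40 with DMSO and 10.12 and 9.78 with SU5402, lower without overlap, with a difference of -0.50 (SE 0.31). Whether the paralogues differ from each other in response was not tested.

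Both SU5402 arrays contributed, in unequal amounts. Relative to each gene's DMSO mean, the median of the 36 genes was -0.36 in SU5402 replicate 1 and -0.81 in replicate 2. The DMSO arrays lay 0.07 to either side of that mean. The same medians were -0.019 and -0.114 over all genes, and -0.048 and -0.124 over genes with a mean level of at least 10. Of the 36, replicate 1 was below the DMSO mean in 33 genes and replicate 2 in 34, and replicate 2 was below replicate 1 in 34. Leaving out SU5402 replicate 2 gives the same values as replicate 1 alone, -0.36 with 33 of 36 genes below 0. Leaving out replicate 1 gives those of replicate 2, -0.81 with 34, so neither is a further check. Both counts use the same DMSO mean, and of the DMSO arrays alone replicate 2 was below replicate 1 in 27 of the 36 genes. Proliferation markers were lower on the same arrays: 12 of 14 were lower, all 12 without overlap, with a list median of -1.19 and a summed intensity of 9641 to 12463 in SU5402 against 26356 to 29932 in DMSO. Neuron markers were higher in 11 of 11 genes (summed intensity 41935 to 65387 against 25671 to 32544). The part of either in the proteasome values was not tested.

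**Figure D3:**
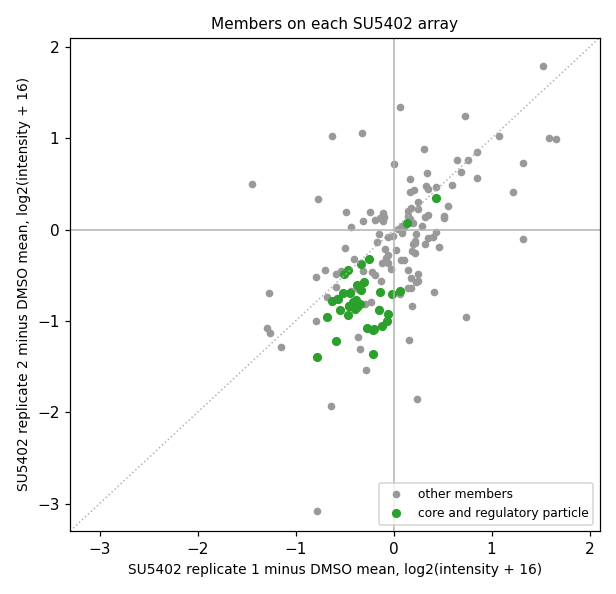
Each member's level on SU5402 replicate 1 (x axis) and replicate 2 (y axis), each minus the gene's DMSO mean, in log2(intensity + 16); green points are the 36 core and regulatory particle genes, grey points the other 122 members, and the dotted line marks equal values. The 2 axes share the DMSO mean; 33 green points lie left of 0 and 34 below 0, and 34 lie under the dotted line.

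Immunoproteasome genes encode beta subunits that replace the standard ones in immune cells and after interferon. Of the 5 measured, 4 averaged below the Tag background in both groups, so their differences rest on dim probe sets. The fifth, psmb10, was at 8.68 and 8.54 with DMSO and 8.03 and 7.86 with SU5402, lower without overlap, with a difference of -0.67 (SE 0.30). The dim genes psmb8a, psmb9a, psmb12 and psmb13a, which lie next to each other in the RefSeq assembly GRCz12tu, were at -0.81, 0.32, -0.34 and -0.02. In psmb8a a single array, SU5402 replicate 2 at 4.55, stood below the other 3 at 5.99 to 6.81. Of 6 leukocyte markers 0 had groups without overlap, where 26.3% of all genes were lower and 19.3% higher without overlap. Of the 6, 4 were below background in both groups. Their summed intensity was 666 to 1082 in SU5402 and 960 to 1180 in DMSO.

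Among proteasome activators, the rings that open the core without ubiquitin, the nuclear activator gene psme3 was lower. Its levels were 11.20 and 10.68 with DMSO and 10.30 and 9.01 with SU5402, so that all 4 arrays differed and SU5402 replicate 2 was far lowest, with a difference of -1.29 (SE 0.50) or 2.45-fold lower (limma, adjusted p = 0.368). Without SU5402 replicate 2 it was -0.64 and without SU5402 replicate 1 it was -1.94. The interferon-inducible pair differed from it in direction, psme1 at 0.37 (SE 0.50) and psme2 at 0.70 (SE 0.48), with SU5402 replicate 2 apart from the other arrays in both. There psme1 reached 7.03 and psme2 8.13, above the other 3 arrays at 5.64 to 6.07 and 6.68 to 6.89. Signals of this pair were dim. Means of psme1 (5.97 with DMSO, 6.33 with SU5402) and the DMSO mean of psme2 (6.79) fell short of the Tag level. The contrast in direction with the brighter psme3 thus rests on dim probe sets. Of the 4 genes for assembly chaperones (psmg) and the core-binding protein psmf1, differences ran from -0.51 to 0.14, and none had an unadjusted p under 0.05. The chaperone genes psmg1 and psmg3 were at 0.14 (SE 0.30) and -0.51 (SE 0.40), and a second probe set of psmg1 was at -0.40. The members psmc3ip (recombination) and psme3ip1 carry a subunit's name but are no subunits, and had differences of -0.90 and -0.16 with overlapping groups. Levels of psmc3ip were dim, with both group means under the Tag level, and its difference was -0.28 without SU5402 replicate 2.

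Of the deubiquitinases, both measured ones that work at the 19S particle were also lower. The gene usp14, whose product binds the 19S particle and trims ubiquitin chains there, stood at 10.92 and 10.70 with DMSO and 9.66 and 9.53 with SU5402. Arrays of each group were close together and the groups more than 1 log2 unit apart, with a difference of -1.22 (SE 0.30) or 2.33-fold lower (95% interval -1.97 to -0.47; limma, adjusted p = 0.258). With any 1 array left out it ran from -1.33 to -1.11. The second enzyme of the 19S particle, uchl5, was at 10.15 and 10.15 with DMSO and 9.78 and 8.97 with SU5402, lower without overlap, with a difference of -0.77 (SE 0.38), and its second probe set was at -0.54. The third deubiquitinase of the particle, psmd14, was not analysed here.

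The usp genes as a whole went both ways. Of the 24 with this stem, usp14 among them, 10 were lower without overlap (41.7%, against 26.3% of all genes) and 5 higher (20.8%, against 19.3%). At an unadjusted p under 0.05, 3 were lower (12.5%, against 8.04% of all genes) and 2 higher (8.33%, against 5.31%). One of the 24, usp6nl, encodes a regulator of Rab GTPases and no deubiquitinase, and was at -0.15. The gene usp1, whose product acts on PCNA and the Fanconi anaemia protein FANCD2 in DNA repair, was at 10.14 and 10.22 with DMSO and 8.92 and 9.05 with SU5402, a clear gap with a difference of -1.20 (SE 0.30) or 2.29-fold lower (limma, adjusted p = 0.258), and -1.26 to -1.13 with 1 array left out. Levels of usp36, the gene of a nucleolar deubiquitinase, were 10.29 and 10.49 with DMSO and 9.60 and 9.39 with SU5402, lower with a difference of -0.89 (SE 0.31), with a second probe set at -0.51. Proliferation markers were lower on the same arrays, as given above, and their part in these values was not tested. Also without overlap were usp37, which acts in the cell cycle, at -0.67 (SE 0.30), with 3 further probe sets at -0.96 to -0.53, and usp5, which recycles free ubiquitin chains, at -0.54 (SE 0.30). Of the further usp37 probe sets, only that at -0.53 had groups apart. The one at -0.58 was below the Tag background in both groups. In the one at -0.96, SU5402 replicate 1 was at 5.70 and the other arrays at 7.65 to 7.74.

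The largest positive difference of any member was that of usp13. It stood at 8.16 and 8.48 with DMSO and 9.85 and 10.11 with SU5402, both SU5402 arrays more than 1 log2 unit above both DMSO arrays, with a difference of 1.66 (SE 0.32) or 3.15-fold (95% interval 0.87 to 2.44; limma, adjusted p = 0.255). Leaving out any 1 array gave 1.49 to 1.82. The gene usp20 was at 6.48 and 6.24 with DMSO and 7.68 and 7.09 with SU5402, higher by 1.03 (SE 0.35), and its DMSO arrays averaged below the Tag background. In the small uchl and otub group, uchl1, which encodes an abundant enzyme of neurons, was at 8.32 and 8.71 with DMSO and 9.73 and 8.93 with SU5402, higher without overlap by 0.82 (SE 0.39), beside the neuron markers that were higher on the same arrays. Its relative uchl3 was at -0.51 (SE 0.35), lower without overlap, and otub1b at -0.01.

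In all 4 E1 genes the groups overlapped, as they did in 4786 of all 8793 genes. The gene uba1, of the main ubiquitin E1, was at 11.72 and 11.73 with DMSO and 11.61 and 11.91 with SU5402, a difference of 0.04 (95% interval -0.72 to 0.79). For uba2, of the SUMO E1, and uba3, of the NEDD8 E1, differences were -0.32 (SE 0.37) and -0.18 (SE 0.38), and in both SU5402 replicate 1 lay above the DMSO arrays and replicate 2 below.

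The 27 E2 genes had a median of 0.04, with 13 below 0 (48.1%, against 56.2% of all genes) and 14 above; they were not tested against the proteasome genes. Without overlap 5 were lower (18.5%, against 26.3%) and 9 higher (33.3%, against 19.3%). The gene ube2d3 was at 0.28 (SE 0.30), ube2na, of the enzyme that builds K63-linked chains, at 0.04 (SE 0.31), ube2a, of the DNA repair E2 Rad6, at 0.20 (SE 0.33), and ube2e3 at -0.04 (SE 0.30). The E2 genes of the anaphase promoting complex and the Fanconi pathway, ube2s and ube2t, were at 0.05 (SE 0.31) and -0.35 (SE 0.37), with overlapping groups. A second probe set of ube2s, below the Tag background, was at 1.58.

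E2 genes with an unadjusted p under 0.05 numbered 3, 2 lower (7.41%, against 8.04% of all genes) and 1 higher (3.7%, against 5.31%), shares near the background. The gene ube2ql1 stood at 7.67 and 7.98 with DMSO and 9.48 and 8.81 with SU5402, higher by 1.32 (SE 0.36) or 2.5-fold without overlap (limma, adjusted p = 0.267); its second probe set, below the Tag background, was at -0.31. Levels of ube2g1b were 10.44 and 10.22 with DMSO and 9.06 and 9.63 with SU5402, lower with a difference of -0.98 (SE 0.35) (limma, adjusted p = 0.339), but its second probe set was at 0.11. The paralogue ube2g1a was at -0.11. The third, ube2wb, was at 5.95 and 5.96 against 4.66 and 4.88 (DMSO against SU5402), with a difference of -1.18 (SE 0.30) between levels that all lay below the Tag background.

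Cullins are the scaffolds of the largest class of E3 ligases, and Skp1 and F-box proteins bring substrates to cullin 1. The 9 cullin, skp1, rbx1 and nedd8 genes ran from -0.82 to 0.36 with a median of -0.17, 6 were below 0 (66.7%, against 56.2% of all genes), and 0 had an unadjusted p under 0.05. The gene nedd8, for the ubiquitin-like protein that switches cullins on, was lowest, at 9.71 and 9.01 with DMSO and 9.02 and 8.05 with SU5402; its groups overlapped narrowly and the difference was -0.82 (SE 0.46), at -0.34 without SU5402 replicate 2. The gene skp1 was at 0.16 (SE 0.33), rbx1, the RING subunit, at -0.17 (SE 0.37), cul1a at -0.07 (SE 0.31) and cul1b at 0.29 (SE 0.31). For cul3a, scaffold of the BTB-protein ligases, the values were 9.03 and 9.04 against 8.74 and 8.22 (DMSO against SU5402), lower without overlap, with a difference of -0.55 (SE 0.33), with a second probe set at -0.20.

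Of 30 F-box genes 20 were above 0 (66.7%, against 43.8% of all genes), 10 of them without overlap (33.3% of the 30, against 19.3%), and the median was 0.13; 10 of the 30 were under the Tag level in both groups. The largest difference of any member was a lower one, in fbxo5, whose product Emi1 inhibits the anaphase promoting complex and lets cells enter DNA replication and mitosis. It stood at 8.38 and 8.16 with DMSO and 7.49 and 5.19 with SU5402, so the size of the -1.93 (SE 0.74) rests on SU5402 replicate 2, without which it was -0.78 (-3.08 without SU5402 replicate 1). SU5402 replicate 2 lay below the Tag background there, and the adjusted p was 0.361 in limma. The 12 of 14 proliferation markers that were lower are the values to set beside it, and their part was not tested.

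Higher F-box genes with an unadjusted p under 0.05 numbered 4 (13.3% of the 30, against 5.31% of all genes). The gene fbxo32 encodes atrogin-1, an F-box protein of heart and skeletal muscle that marks muscle proteins for degradation, and its relative fbxo25 is close to it in sequence. Levels of fbxo25 were 7.05 and 7.68 with DMSO and 8.95 and 8.37 with SU5402, higher by 1.30 (SE 0.39) or 2.46-fold (limma, adjusted p = 0.283), with a second, dim probe set at 0.01. For fbxo32 the values were 5.23 and 5.94 with DMSO and 6.66 and 6.61 with SU5402, a difference of 1.05 (SE 0.36), all below the Tag background, and it was 0.69 without DMSO replicate 1. Of the heart muscle markers 9 of 10 were higher on the same arrays, 8 of them at an unadjusted p under 0.05. Of 7 skeletal muscle markers 6 were lower, 2 of them without overlap, and 1 was higher, also without overlap. The 2 lower ones without overlap averaged below the Tag background in SU5402. The summed intensity of the 7 was 6028 to 6502 in SU5402, within the 4114 to 11718 of DMSO. The part of either marker list in these values was not tested.

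The gene fbxl3a, whose mammalian relative directs cryptochromes of the circadian clock to degradation, was at 8.58 and 8.58 with DMSO and 9.43 and 9.43 with SU5402. Arrays of a group were almost equal, and the difference was 0.85 (SE 0.30) (limma, adjusted p = 0.334). The SE is wider than that spread, as limma moderates each gene's variance towards that of all probe sets. The gene fbxl9 was at 6.25 and 6.42 against 7.06 and 7.58 (DMSO against SU5402; difference 0.99 (SE 0.33)), from below the Tag background in DMSO. In fbxo2, a reader of glycoproteins, SU5402 replicate 1 at 9.85 and replicate 2 at 11.79 lay on either side of the DMSO arrays at 11.23 and 11.35. The ligase gene nedd4l, of the HECT family, was at 6.90 and 7.42 with DMSO and 8.01 and 7.72 with SU5402, higher without overlap by 0.71 (SE 0.34), and averaged below the Tag background in DMSO.

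**Figure D4:**
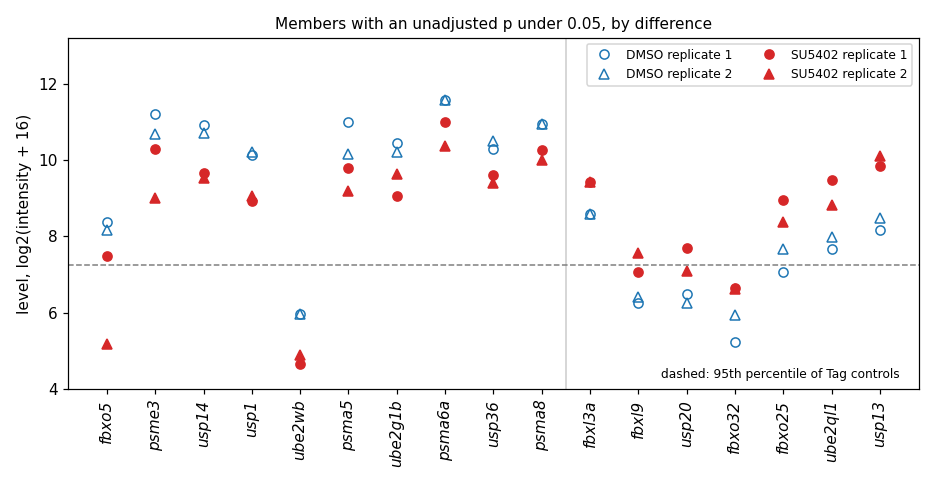
Levels (y axis, log2(intensity + 16)) of the 17 members with an unadjusted p under 0.05 on each array, ordered by difference, with lower genes left and higher genes right of the vertical line; open blue symbols are DMSO, filled red symbols SU5402, circles replicate 1 and triangles replicate 2. The groups are apart in all 17, ube2wb and fbxo32 lie under the dashed background line at 7.25, and fbxo5 and psme3 show the widest spread between SU5402 arrays.

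The COP9 signalosome, which takes Nedd8 off cullins again, had 5 of 7 genes below 0 (71.4%, against 56.2% of all genes) and a median of -0.35. Without overlap 3 were lower (42.9%, against 26.3%) and 1 higher (14.3%, against 19.3%). Its catalytic subunit gene cops5 was at 10.64 and 10.66 with DMSO and 10.83 and 10.01 with SU5402, with SU5402 replicate 1 highest and replicate 2 lowest of the 4 (-0.23 (SE 0.38)). The gene cops2 was at 11.00 and 10.47 against 10.37 and 10.09 (DMSO against SU5402), a difference of -0.51 (SE 0.34) with a narrow gap. The SUMO genes sumo2b and sumo3a were at -0.12 (SE 0.37) and -0.24 (SE 0.37), and in both SU5402 replicate 1 was above the DMSO arrays and replicate 2 below them.

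Genes of the same pathways outside the naming rule were taken from 5 further lists. Of 17 other ubiquitin and proteasome factors, 12 were lower (70.6%, against 56.2% of all genes), 8 of them without overlap (47.1% of the 17, against 26.3%), and 0 had an unadjusted p under 0.05 (median -0.24). Those with the lowest p encode parts and partners of the proteasome: sem1, a small 19S subunit, at 11.02 and 10.48 with DMSO and 10.24 and 9.06 with SU5402 (-1.10 (SE 0.48)), the core maturation factor gene pomp at -0.56 (SE 0.35), and txnl1, of a 19S-bound thioredoxin, at -0.47 (SE 0.30). Of 13 anaphase promoting complex genes, 9 were lower (69.2%, against 56.2% of all genes; median -0.47), 2 at an unadjusted p under 0.05 (15.4% of the 13, against 8.04%). These were its activator cdc20 at -1.19 (SE 0.33) and the subunit gene cdc26 at -0.92 (SE 0.36), with cdc23 next at -0.71 (SE 0.32).

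Of 27 other E3 genes, 17 were lower (63.0%, against 56.2% of all genes; median -0.11). At an unadjusted p under 0.05, 3 were lower (11.1%, against 8.04%) and 0 higher (against 5.31%). The gene uhrf1, which maintains DNA methylation at replication, was at 11.73 and 11.46 with DMSO and 9.78 and 9.80 with SU5402 (-1.81 (SE 0.31)). The F-box gene skp2, which removes inhibitors of the cell cycle, was at 10.06 and 10.07 with DMSO and 8.47 and 8.23 with SU5402 (-1.72 (SE 0.30)). Both showed wide gaps between groups, and the third, the DNA damage gene ddb2, was at -1.66 from levels below the Tag background. The list of 11 other deubiquitinase genes and genes related to them had a median of 0.22 and 0 at an unadjusted p under 0.05. Of the 11, 7 were higher (63.6%, against 43.8% of all genes). Without overlap 5 were higher (45.5%, against 19.3%) and 1 lower (9.09%, against 26.3%). Of these, otud5a, josd2 and stambpa were at 0.68, 0.58 and -0.42. The mean of josd2 was below the Tag background in DMSO, and that of stambpa in both groups. Of 20 SUMO, NEDD8 and related factors, 1 lower (5.0%, against 8.04% of all genes) and 2 higher (10.0%, against 5.31%) had an unadjusted p under 0.05. The lower one, sae1, partner of uba2 in the SUMO E1, was at 11.25 and 11.04 with DMSO and 10.37 and 9.53 with SU5402 (-1.19 (SE 0.39)). The interferon-induced isg15 was at 1.37 (SE 0.38), from a mean below the Tag background in DMSO, and senp8 at 1.21 (SE 0.45), below it in both groups. None of these genes passed limma over all probe sets at an adjusted p under 0.05 (lowest adjusted p = 0.255).

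Of the 158 members, 29 had further probe sets, 37 in all. The sign was the same in all further probe sets of 18 genes and differed in at least 1 for 11. Among the 36 genes grouped as core and regulatory particle, further probe sets of psmd1, psmc1b, psmd12 and psmd9 were all below 0, from -0.89 to -0.18. Both ends of that range, from psmd9 and psmc1b, lay below the Tag background in both groups. Those above it ran from -0.75 (psmd12) to -0.24 (psmd1). All of these genes but psmd1 were named after their values were seen. Opposite signs occurred among the E2 genes ube2g1b and ube2ql1, named above, and in cul4b, where the probe set used was at -0.38 and a second, below the Tag background, at 0.59.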

How the data were processed

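Hearts with surrounding tissue were taken from zebrafish embryos at 48 hpf with a syringe-based method and total RNA was labelled with biotin, per the labels' protocols. What the authors deposited is 1 linear intensity per probe set and array; from the values, all arrays share a trimmed mean of 500.1, so they were scaled but not quantile normalised. The algorithm, software and scaling step: not given in the sources used here. No column of another sample was present (0), and the number of arrays limits the precision.

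Control probe sets (115) were left out. Symbols came from an old platform annotation updated by Entrez ID through RefSeq (assembly GRCz12tu); of 15502 probe sets, 10795 had 1 symbol, 135 several and 4572 none. Values were taken to log2(value + 16), and limma 3.58.1 (lmFit and eBayes, R 4.3.3; two-sided, Benjamini-Hochberg over all 15502 probe sets) fitted treatment as the single term. The fit was tested on simulated data. Shares were also computed over all 8793 genes.

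Members, role groups, lists and the naming rule were chosen with earlier results of these data known. Named were, per role, up to 5 members with the largest difference at an unadjusted p under 0.05 without overlap, the 2 brightest, and 39 fixed names, of which 34 were measured; the others are not reported here. Up to 3 genes of each further list were named by lowest p. Named outside the rule, after their values were seen, were psma6l, psmc1b, psmd5, psmd9, psmd10, psmd12, ube2g1a, cul4b, psmf1, usp6nl and ube2r2. Both psmc3ip and psme3ip1 were set apart from the subunits after their names were seen. Alternatives were a replicate block, pseudocounts of 1 and 64, median centring, quantile normalisation, dropping the dimmest 25% of probe sets, a floor at the Tag background, an intensity trend, averaging the probe sets of a gene and each array left out; a second form of the floor and leaving out members by name only were added after the data were seen.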

Additional observations from a re-analysis of the deposited data

How the results depend on the processing

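The 36 core and regulatory particle genes kept a median difference below 0 in every setting run, from -0.60 (quantile normalisation, pseudocount 1) to -0.52 (median centring) with all arrays, with 34 below 0 in each of these. With 1 array left out their median ran from -0.81 to -0.36, with 33 to 35 genes below 0; without SU5402 replicate 2 it was -0.36. The median of all members ran from -0.33 (without SU5402 replicate 1) to -0.064 (without SU5402 replicate 2).

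With the replicate block 7 members were higher and 12 lower at an unadjusted p under 0.05, as were 622 and 909 of all 8793 genes. The named members that came under it were nedd8 (-0.82) and psmc3ip (-0.90). No count of members moved by over 1.5 times, and 0 passed at an adjusted p under 0.05 (lowest adjusted p = 0.165 in limma). Whether same-numbered samples share a batch is not known, since no label says so, and the main fit does not pair them. Same-numbered deviations correlated at 0.276 over 2 pairs, too few to settle it. The 10 lower members at an unadjusted p under 0.05 became 5 with a pseudocount of 1 and 21 with a pseudocount of 64. They were 18 with values raised to the Tag background as a floor and 20 with its second form. That form, added after the data were seen, leaves out probe sets above the floor on no array. Over all 8793 genes the 707 lower ones became 584, 831 and 610, and 681 of 6512 with the second form. They were 1 to 23 with 1 array left out (1 without DMSO replicate 1, 2 without DMSO replicate 2, 5 without SU5402 replicate 2, 23 without SU5402 replicate 1), and the 7 higher ones 1 to 8. These settings leave 1 group as a single array, assumed to vary like the other. At an adjusted p under 0.05 the count of 0 stayed 0 in limma in every setting but the floor, where 2 passed, fbxl3a and ube2r2 (adjusted p = 0.0204 and 0.0211). In that setting probe sets at the floor on all arrays have no spread, and with these left out 0 passed (lowest adjusted p = 0.192). Of the 17 members at an unadjusted p under 0.05, 0 took the opposite sign in any setting. For most settings this was fixed in advance. The groups were apart in all 17, so an array left out, another pseudocount or the floor could not reverse a sign. With the floor fbxo32 and ube2wb were at 0 and fbxl9 and usp20 at 0.16 and 0.22. Of the 17, 12 to 17 stayed under 0.05 with another pseudocount, scaling, prior or probe set summary, and 8 and 11 did with the forms of the floor. Fewer than 17 stayed with any 1 array left out. With 1 array left out, 50 of the 68 named members moved by over 1.5 times, among them 5 of these 17 (psma5, psma6a, psme3, fbxo32 and fbxo5), and of others psmb4 ran from -1.075 to -0.27, psma2b from -1.10 to -0.21, uchl5 from -1.18 to -0.37 and uchl1 from 0.41 to 1.22.

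With median centring otub1b was 0.063, psmb13a 0.008 and ube2e3 0.040, and with probe sets of a gene averaged psmg1 was -0.13 and ube2e3 0.064. With 1 array left out, the following differences crossed 0 over these ranges: cops5 -0.640 to 0.181, cul1a -0.228 to 0.088, fbxo2 -1.441 to 0.499, otub1b -0.139 to 0.126, psmb13a -0.245 to 0.196, psmb6 -0.670 to 0.065, psmb8a -1.850 to 0.239, psmd4a -0.007 to 0.213, psme1 -0.325 to 1.061, psme3ip1 -0.560 to 0.247, rbx1 -0.525 to 0.176, skp1 -0.077 to 0.406, sumo2b -0.486 to 0.253, sumo3a -0.637 to 0.147, uba1 -0.109 to 0.184, uba2 -0.708 to 0.064, uba3 -0.578 to 0.226, ube2a -0.026 to 0.431, ube2e3 -0.090 to 0.014, ube2na -0.087 to 0.166, ube2s -0.121 to 0.215, ube2t -0.700 to 0.007. The number of arrays and, for the 24 members below the Tag background in both groups, signal over background limit these results.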
